A study of Drosophila melanogaster and Drosophila simulans and Drosophila yakuba with 24 samples.

Results

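The cytoplasmic ribosomal protein genes of Drosophila melanogaster were followed across 4 tissues of wild-type females. They were taken as every row of the raw count table whose gene symbol begins with RpL, for the large ribosomal subunit, or RpS, for the small subunit. The rule returned 89 of the 13898 listed genes, 53 RpL and 36 RpS. It matched names alone, but was set with earlier results of these data known. The sources were ovaries, eviscerated abdomens (the abdominal wall with ovaries and gut taken out), thoraces and heads, all from Canton S females aged 10 days, untreated and carrying no transgene. Each library pooled tissue from 25 to 100 flies, and 3 libraries of total RNA depleted of ribosomal RNA were sequenced per tissue, 12 in all. Counts on genes came to between 22247599 and 32498809 per ovary library, 7884586 and 11600876 per abdomen library, 8087981 and 13630001 per thorax library, and 14040598 and 19208152 per head library.

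Ribosomes read messenger RNA on the small subunit and join amino acids on the large subunit, and each ribosomal protein is normally present as a single copy per particle. Cells therefore make the proteins in near equal amounts, together with ribosomal RNA made by RNA polymerase I, and in flies the loss of a copy of many of these genes gives the Minute phenotype of slow development and short bristles. In the ovary, nurse cells make large numbers of ribosomes that are passed to the oocyte. Some of the proteins are encoded by a pair of paralogous genes, and RpS19b and RpL22-like are paralogues known for activity in the germ line.

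Marker genes were compared with the tissue labels first. The summed level of 8 neuron and photoreceptor markers was 83.4 to 96.9 CPM (counts-per-million, scaled between libraries by edgeR's TMM factors) in ovary, 84.3 to 143 in abdomen, 504 to 645 in thorax and 32173 to 36224 in head. The 8 muscle markers were highest in thorax (8449 to 10537 CPM) and the 8 fat body and oenocyte markers lowest in ovary (795 to 1018 CPM, against 42731 to 66940 CPM in the other tissues). The 11 follicle cell and eggshell markers summed to 19118 to 20760 CPM in ovary, 8388 to 9126 in abdomen, 4.80 to 95.5 in thorax and 4.38 to 15.7 in head. The 10 germline markers summed to 3035 to 3257 CPM in ovary and to 831, 2092 and 1794 CPM in abdomen replicates 1, 2 and 3, against 71.4 to 97.3 CPM in thorax and 77.6 to 100.4 CPM in head. The eviscerated abdomens thus carried RNA of ovarian genes. The median was 50.01% of the ovary level for the germline markers (range 19.6% to 109.9%) and 23.5% for the follicle cell markers (13.7% to 120.3%). The germline markers include grk and bgcn, which were lower in ovary than in head. The part of this ovarian gene RNA in the abdomen values below was not tested. Abdomen replicate 1 also stood apart from replicates 2 and 3 over all genes, and head replicate 1 listed 27 genes at 0 counts where the other 11 libraries listed 525 to 2995. In bulk tissue, fewer cells of a type and less RNA per cell cannot be told apart.

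Ribosomal protein genes took up a larger part of the counts in ovary and abdomen than in thorax and head. Their share of gene counts was 10.2%, 11.4% and 11.3% in the ovary libraries, 15.3%, 11.1% and 10.9% in abdomen, 4.13%, 3.59% and 3.89% in thorax, and 4.06%, 4.97% and 4.25% in head. The ovary and abdomen ranges overlapped with each other and lay above every thorax and head library. The mean in ovary was 10.9% ± 0.664 and the mean over the 9 other libraries 6.91%, a difference of 4.03 percentage points that did not pass the exact permutation test over libraries (2-sided p = 0.136, n = 3 against 9). An exact permutation test of 3 libraries against 3 cannot go below p = 0.1, so the tissues were not tested in pairs. Abdomen replicate 1 held the highest share of the 12. Large-subunit genes received 61.2% to 61.5% of the ribosomal protein counts in ovary, 59.6% to 60.3% in abdomen, 60.8% to 62.9% in thorax and 58.5% to 59.2% in head.

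**Figure D1:**
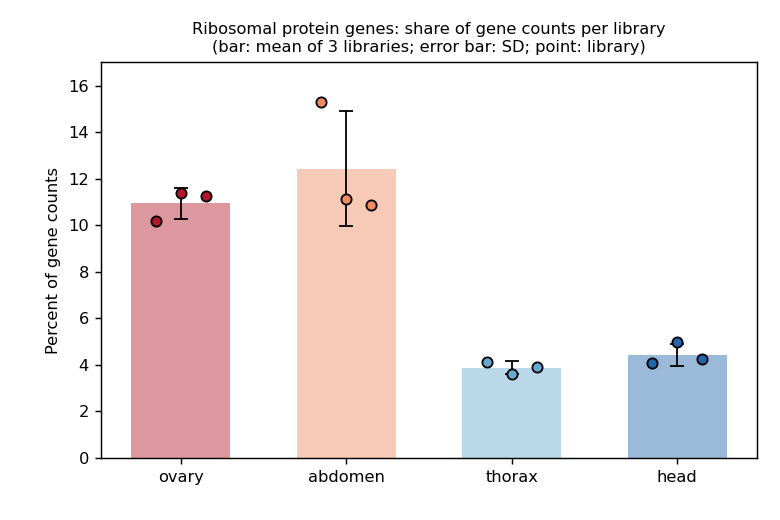
Share of all gene counts that fell on the 89 ribosomal protein genes (y axis, percent) in ovary, abdomen, thorax and head, with 1 point per library, a bar at the mean and an SD error bar. The ovary and abdomen libraries sit between 10.2% and 15.3%, and the thorax and head libraries between 3.59% and 4.97%.

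Levels of different genes were compared per transcript length, in TPM (transcripts-per-million) rescaled from the deposited RPKM. The most abundant over the 12 libraries were RpL41, which encodes the smallest ribosomal protein, RpS29, RpLP2, RpS28b and RpL23. RpL41 averaged 13162 ± 247 TPM in ovary, 20379 ± 1639 TPM in abdomen, 1874 ± 389 TPM in thorax and 2225 ± 359 TPM in head (SD, n = 3 each). It ranked first of the 89 in ovary and abdomen, but eighth in thorax and twelfth in head. RpS29 averaged 4427 ± 163 TPM in ovary, 6846 ± 687 TPM in abdomen, 3406 ± 156 TPM in thorax and 5208 ± 422 TPM in head, where it ranked first, as it did in thorax. RpL23 shares its position with inaD, and RpL41 with NaCP60E, in the Release 6 annotation. The counting method was not stated to use strand, so reads of such overlapping genes cannot be told apart, a limit that touches the 25 members that overlap another protein-coding gene.

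Among the 82 members with enough counts to be tested, the TPM level was most even in ovary. The upper quartile was 1.502 times the lower quartile in ovary, 3.24 times in abdomen, 1.90 times in thorax and 2.18 times in head, around medians of 2559, 2548, 1062 and 1318 TPM in that order of tissues. The ranking of the 82 genes by mean TPM was closest between thorax and head (Spearman's rho = 0.91) and least alike between abdomen and thorax (rho = 0.54), with ovary and abdomen at 0.75. These coefficients run across genes that share libraries, and are given as a description.

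**Figure D2:**
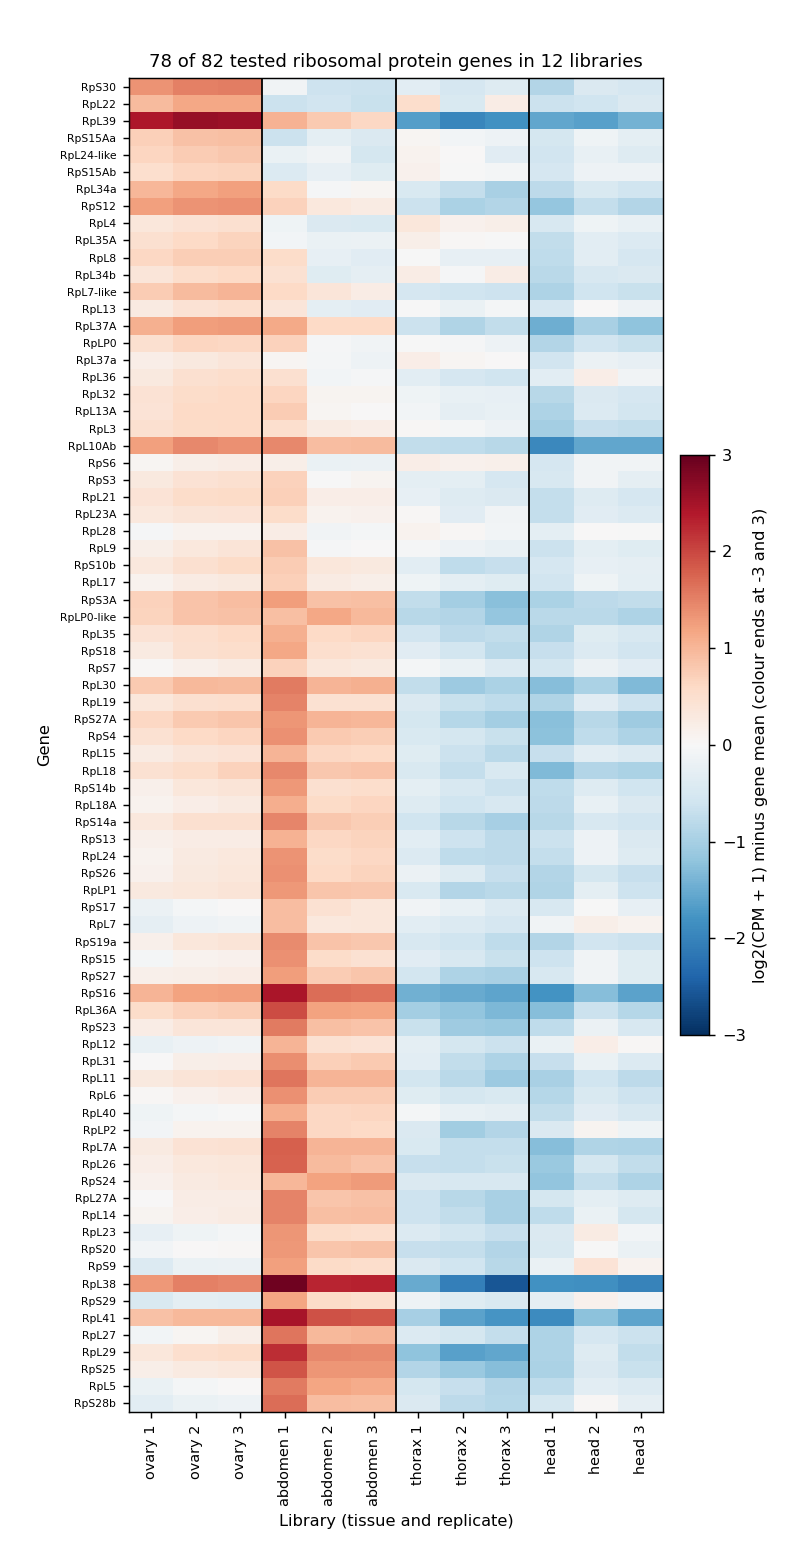
Level of 78 of the 82 tested ribosomal protein genes (rows) in the 12 libraries (columns, grouped as ovary, abdomen, thorax and head), as log2(CPM + 1) minus the mean of that gene over the libraries. Rows run from the genes highest in ovary relative to abdomen (RpS30 at the top) to those lowest (RpS28b at the bottom), and abdomen replicate 1 is darker than replicates 2 and 3 for most rows.

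Most ribosomal protein genes were higher in ovary than in head or thorax, and none was lower by edgeR. The test called 68 of the 82 members higher and 0 lower in ovary than in head, where 39.3% of all 11188 tested genes were called higher and 46.4% lower. In ovary against thorax it called 65 higher and 0 lower, with 40.3% and 43.7% of all genes called. The median log2 fold change of the members was 0.93 against head and 0.83 against thorax, beside medians of -0.25 and -0.11 over all genes. At an unadjusted p below 0.05, edgeR still counted 0 members as lower in both comparisons. DESeq2 placed 5 members lower in ovary than in head (among them RpL7, RpS9, RpL12 and RpS29) and 3 lower than in thorax (among them RpL28 and RpS6), and limma on log2(TPM + 1) placed RpL7, RpS9 and RpS29 lower than in head and 0 members lower than in thorax. Of all 11188 genes, DESeq2 placed 5680 lower than in head and 5476 lower than in thorax. For limma on log2(TPM + 1) these numbers were 4882 and 3948. Outside the paralogue pairs, the largest differences belonged to RpL39 and RpL38.

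RpL39, a very small protein of the tunnel through which the new chain leaves the ribosome, had 556, 624 and 611 CPM in ovary, 211, 175 and 158 CPM in abdomen, 31.5, 25.6 and 28.0 CPM in thorax, and 33.7, 32.3 and 37.2 CPM in head. The ovary libraries lay above all others, the abdomen libraries were intermediate, and thorax and head were lowest. The log2 difference was 4.12 ± 0.17 (SE) for ovary against head (edgeR adjusted p = 8.64e-11), 4.40 ± 0.17 against thorax (8.48e-11) and 1.72 ± 0.15 against abdomen (4.93e-07). RpL39 overlaps RpL12 in the Release 6 annotation. RpL12, a protein of the base of the ribosomal stalk, had a different order, with 978 to 1059 CPM in ovary, 1533 to 2337 in abdomen, 733 to 938 in thorax and 997 to 1319 in head.

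RpL38 had 706, 814 and 787 CPM in ovary, 2159, 1405 and 1423 CPM in abdomen, 99.5, 68.5 and 47.9 CPM in thorax, and 80.9, 78.9 and 71.2 CPM in head. Its abdomen libraries were the highest, and its ovary libraries lay well above thorax and head without overlap. Ovary exceeded head by 3.32 ± 0.26 on the log2 scale (edgeR adjusted p = 5.94e-08) and was lower than abdomen by a log2 difference of -1.11 ± 0.24 (adjusted p = 0.00125), which was 0.89 on log2(RPKM + 1), a scale on which the median gene was at 1.43.

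**Figure D3:**
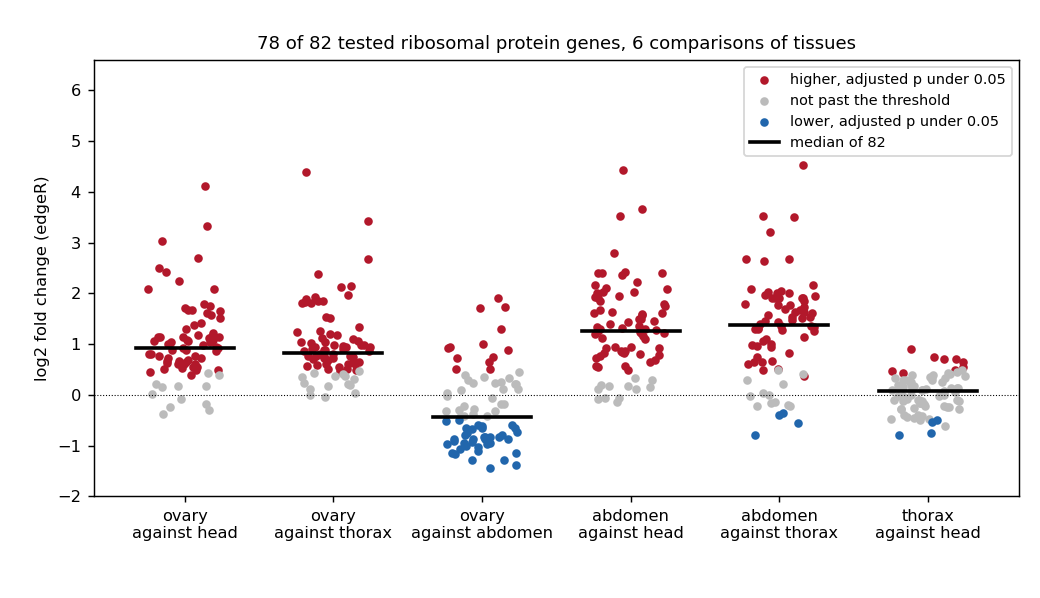
The log2 fold change (y axis, edgeR) of 78 of the 82 tested ribosomal protein genes in the 6 comparisons of tissues, the first-named tissue over the second, with higher calls in red, lower calls in blue, genes past neither threshold in grey and the median of the 82 as a black line. The medians are 0.93, 0.83, -0.43, 1.26, 1.38 and 0.07 from left to right.

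By edgeR, most members were also higher in abdomen than in head or thorax. In abdomen against head, 69 of the 82 members were higher and 0 lower (edgeR adjusted p, beside 35.8% and 39.2% of all genes), with 0 lower also at an unadjusted p below 0.05. DESeq2 called 1 member lower there (RpS15Aa), and limma on log2(TPM + 1) called 11, beside 4876 and 5416 of all 11188 genes. Against thorax, 65 members were higher in abdomen and 4 lower (RpL4, RpL22, RpS15Aa and RpS15Ab), beside 35.5% and 36.9% of all genes. With limma on log2(RPKM + 1) these counts were 38 and 11 of the 82, beside 2260 and 5340 of all 11188 genes. The lower calls were 8 with DESeq2 and 0 with library size alone, beside 4745 and 3181 of all 11188 genes. The 4 fell to 1 without thorax replicate 1 or abdomen replicate 3 and to 2 without thorax replicate 2 or head replicate 3. The median member was 1.26 higher than in head and 1.38 higher than in thorax on the log2 scale, and the median of all genes was -0.08 in both. These comparisons share the abdomen libraries with the next one, and the head and thorax libraries with the previous ones.

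RpL41 reached 5731, 3852 and 3726 CPM in abdomen, against 515, 340 and 300.3 CPM in thorax and 279, 436 and 345 CPM in head. Every abdomen library was several times above every thorax and head library, at log2 differences of 3.53 ± 0.27 over thorax (edgeR adjusted p = 1.05e-07) and 3.65 ± 0.27 over head (5.50e-08). RpL38 rose further, by 4.53 ± 0.28 over thorax (1.85e-08) and 4.43 ± 0.28 over head (1.20e-08). Of the proteins of the lateral stalk, which recruits the translation factors, RpLP1 averaged 2081 ± 417 CPM in abdomen and 695 ± 143 CPM in head, and RpLP2 3136 ± 1172 CPM in abdomen and 1456 ± 257 CPM in head. The stalk base RpLP0 averaged 1201 ± 399 CPM in abdomen and 623 ± 66.99 CPM in head. The log2 differences were 1.58 ± 0.20 for RpLP1, 1.11 ± 0.25 for RpLP2 and 0.95 ± 0.21 for RpLP0 (adjusted p = 1.14e-05, 0.00143 and 0.00103), and none of the 3 overlapped between the tissues.

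The 13 members not called between abdomen and head included RpL4, RpL13, RpL22, RpL24-like, RpL28, RpL35A, RpL36, RpL37a, RpS6, RpS15Aa, RpS15Ab and RpS30. RpL4 had 1096, 876 and 865 CPM in abdomen, 1496, 1296 and 1351 CPM in thorax, and 850, 1085 and 1015 CPM in head. Abdomen thus lay below thorax without overlap, by a log2 difference of -0.55 ± 0.16 (edgeR adjusted p = 0.00755), and overlapped with head. The call was lost without abdomen replicate 3 (adjusted p = 0.0683) or thorax replicate 1 (0.0617). The heat map by library shows a number of these genes in its upper rows, where the abdomen columns are pale and the ovary columns red.

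Between ovary and abdomen the members split. edgeR called 15 of the 82 (18.3%) higher in ovary, beside 32.6% of all genes, and 40 (48.8%) lower, beside 35.9% of all genes, with 27 past neither threshold. The median member was at -0.43 and the median gene at -0.01 on the log2 scale. Small-subunit genes were at a median of -0.60 (6 higher and 18 lower of 32) and large-subunit genes at -0.30 (9 higher and 22 lower of 50). This balance moved with the scaling between libraries. With scaling by library size alone, edgeR called 29 higher and 30 lower, and the medians were -0.12 for members and 0.26 for all genes. With limma on log2(TPM + 1), which changes the tool and the measure as well, 34 members were higher and 28 lower and the medians were 0.10 for members and 0.32 for all genes. With limma on the deposited RPKM, which summed to 499113 to 541610 per ovary library and 164172 to 219408 per abdomen library, 79 were higher and 0 lower and the medians were 1.57 and 1.43. Without abdomen replicate 1, edgeR called 27 higher and 35 lower, and without ovary replicate 1 it called 18 higher and 24 lower.

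The 15 higher in ovary included RpS30, RpL22, RpL39, RpS15Aa, RpL24-like, RpS15Ab, RpL34a, RpS12, RpL4, RpL35A, RpL8, RpL34b and RpL7-like, and 8 of them were also among the 13 not called between abdomen and head, a comparison with which this one shares the abdomen libraries. RpS30, made as a fusion with a ubiquitin-like protein, had 605, 672 and 686 CPM in ovary against 220, 154 and 149.7 CPM in abdomen, 189, 165 and 180 CPM in thorax and 128, 173 and 165 CPM in head. Its ovary libraries stood apart from the other 9, whose ranges ran into each other. Ovary exceeded abdomen by 1.91 ± 0.18 on the log2 scale (edgeR adjusted p = 1.06e-06).

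At the other end, outside the paralogue pairs, were RpL5, which binds 5S ribosomal RNA, and RpS25. RpL5 had 1803, 2002 and 2094 CPM in ovary against 6156, 4750 and 4505 CPM in abdomen, 1437, 1281 and 1135 CPM in thorax and 1239, 1666 and 1567 CPM in head. All abdomen libraries were more than any other library, and ovary was lower by a log2 difference of -1.39 ± 0.19 (edgeR adjusted p = 2.17e-05). RpS25 had 965, 1024 and 1056 CPM in ovary against 3159, 2145 and 2137 CPM in abdomen, a log2 difference of -1.29 ± 0.20 (7.59e-05). On the deposited RPKM scale the sign of both differences turned, at log2 values of 0.60 for RpL5 and 0.71 for RpS25, where the median over all genes was 1.43.

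Thorax and head differed little in these genes. edgeR called 9 members higher and 5 lower in thorax than in head, beside 16.5% and 25.4% of all genes, and the median member was at 0.07 and the median gene at -0.17. RpL3, a protein near the peptidyl transferase centre, had 1178, 1101 and 1027 CPM in thorax against 565, 710 and 688 CPM in head (log2 difference 0.75 ± 0.15, adjusted p = 0.00160). RpL35A averaged 398 ± 29.7 CPM in thorax and 273 ± 39.5 CPM in head (0.54 ± 0.15, adjusted p = 0.0101). RpL29 went the other way, with 159, 118 and 123 CPM in thorax against 193, 279 and 219 CPM in head (-0.79 ± 0.23, adjusted p = 0.0148), as did RpS9, with 1204, 1071 and 921 CPM in thorax against 1418, 2167 and 1766 CPM in head (-0.74 ± 0.22, adjusted p = 0.0161). The calls of RpL29 and RpS9 were lost without head replicate 2, thorax replicate 2 or 3, or any single ovary library (adjusted p = 0.0534 to 0.0963 for RpL29 and 0.0582 to 0.103 for RpS9). On the RPKM scale RpL29 was at 0.18 and RpS9 at 0.24, where the median gene was at 0.51. Leaving out single libraries moved the higher calls to 4 without thorax replicate 1, 5 without head replicate 1, 22 without abdomen replicate 1 and 23 without any of the ovary replicates. It moved the lower calls to 14 without abdomen replicate 1, 8 without head replicate 1, 2 without head replicate 3, and 0 without head replicate 2, thorax replicate 2 or 3, or any of the ovary replicates. By comparison, limma on log2(TPM + 1) gave 4 higher and 43 lower, beside 1087 and 4853 of all 11188 genes.

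The paralogous genes were compared as the share of a pair's counts that fell on a given gene, which does not depend on the scaling between libraries. Of 13 pairs, 5 differed between the 3 ovary libraries and the 9 others in the exact 2-sided permutation test after Benjamini-Hochberg adjustment over the pairs. RpL7, RpL34, RpS15A and RpS10 were among them. The first 3 had the smallest p that this exact test can give for 3 against 9 libraries, 0.00909 (adjusted p = 0.0295), and RpS10 had p = 0.0182 (adjusted p = 0.0473). The number of pairs that passed was 4 on leaving out any single head or thorax library, or abdomen replicate 1 or 3, and 0 on leaving out any single ovary library. With an ovary library left out, the smallest possible p is larger, and passes the adjustment over 13 pairs only if most pairs reach it. That 0 was thus all but fixed by the design and does not bear on single pairs. The 9 other libraries come from 3 tissues and are not replicates of a single group, so the values of each tissue are given below. Reads of near-identical copies could be split between them in ways the counting method does not state, and shares between close paralogues are uncertain to that extent.

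RpL7-like, a relative of RpL7 by sequence, held 6.91%, 7.15% and 7.25% of the RpL7 and RpL7-like counts in ovary, 2.77%, 3.56% and 3.18% in abdomen, 3.02%, 2.99% and 3.13% in thorax, and 1.95%, 2.02% and 2.03% in head. All ovary shares exceeded the highest of the other libraries. RpL7-like averaged 110 ± 9.54 CPM in ovary, 77.2 ± 9.94 CPM in abdomen, 38.7 ± 1.98 CPM in thorax and 34.8 ± 4.18 CPM in head. RpL7 itself averaged 1437 ± 87.5, 2401 ± 593, 1231 ± 82.8 and 1700 ± 170 CPM in the same order, so the members differed in opposite directions between ovary and abdomen (log2 0.51 ± 0.14 for RpL7-like, adjusted p = 0.00588, and -0.74 ± 0.18 for RpL7, adjusted p = 0.00280, or 1.26 for RpL7 on the RPKM scale). Without ovary replicate 1 the call of RpL7 was lost (adjusted p = 0.0542).

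In the RpL34 pair, RpL34b was the larger member in every library, and its share was smallest in ovary, at 76.2%, 76.1% and 76.0%, against 81.99%, 80.01% and 79.8% in abdomen, 88.8%, 89.0% and 92.1% in thorax, and 83.0%, 83.1% and 84.7% in head. RpL34a averaged 208 ± 17.5 CPM in ovary, 110 ± 26.8 in abdomen, 57.6 ± 10.8 in thorax and 61.7 ± 6.77 in head. RpL34b averaged 663 ± 52.0, 465 ± 153, 517 ± 52.8 and 315 ± 42.4 CPM in the same order, and was also higher in thorax than in head (0.71 ± 0.21, adjusted p = 0.0159). Its ovary and abdomen libraries overlapped, although edgeR called it higher in ovary (adjusted p = 0.0450). DESeq2 did not call it (adjusted p = 0.142), and edgeR lost the call on leaving out any of 7 single libraries (adjusted p = 0.0511 to 0.167). The call between thorax and head was lost without head replicate 1 (adjusted p = 0.0648).

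RpS15Ab held 21.2%, 21.0% and 21.0% of the RpS15A counts in ovary, 27.0%, 24.7% and 24.6% in abdomen, 24.8%, 24.5% and 25.0% in thorax, and 24.1%, 23.4% and 25.7% in head. The groups did not overlap but the gap was small, a mean difference of -3.76 percentage points. Both genes were higher in ovary than in abdomen. RpS15Aa averaged 823 ± 57.2 CPM in ovary and 336 ± 40.2 CPM in abdomen (log2 1.29 ± 0.16, adjusted p = 9.90e-06), and RpS15Ab 220 ± 13.8 CPM in ovary and 114 ± 7.37 CPM in abdomen (0.95 ± 0.14, adjusted p = 5.13e-05).

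**Figure D4:**
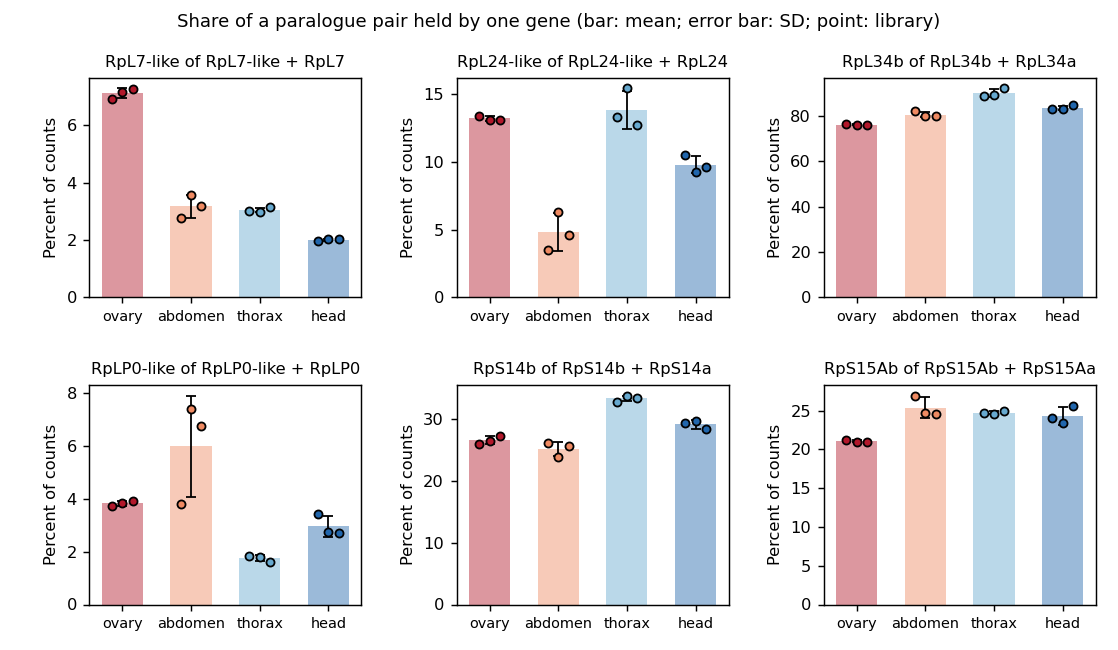
Percent of the counts of 6 paralogue pairs held by the gene named first in each panel title, in ovary, abdomen, thorax and head, with 1 point per library, bars at the mean and SD error bars. RpL7-like is highest in ovary (6.91% to 7.25%), RpL34b and RpS15Ab are lowest in ovary, RpL24-like is lowest in abdomen, and RpS14b is highest in thorax.

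Among pairs that did not pass the test for ovary, 3 had both members expressed, and their shares by tissue are given as values. RpL24-like, which in yeast has a counterpart that acts in assembly of the large subunit and not in the finished ribosome, held 13.4%, 13.1% and 13.1% of the RpL24 and RpL24-like counts in ovary, 3.50%, 6.29% and 4.58% in abdomen, 13.3%, 15.4% and 12.7% in thorax, and 10.5%, 9.24% and 9.64% in head (adjusted p = 0.256 for ovary, exact permutation test). The abdomen libraries were below all others. RpL24-like averaged 159 ± 9.30 CPM in ovary and 79.1 ± 11.5 CPM in abdomen (log2 1.01 ± 0.16, adjusted p = 0.000106), while RpL24 averaged 1049 ± 77.3 CPM in ovary and 1658 ± 543 CPM in abdomen (-0.66 ± 0.23, adjusted p = 0.0200, and 1.36 on the RPKM scale). The call of RpL24 was lost without abdomen replicate 1 or any single ovary library (adjusted p = 0.0960 to 0.180). RpLP0-like, related to the stalk base protein RpLP0, was at 61.3 ± 5.11 CPM in ovary, 71.2 ± 7.21 CPM in abdomen, 17.5 ± 2.12 CPM in thorax and 18.9 ± 0.992 CPM in head. Its share was 3.84% ± 0.0974 in ovary, 5.99% ± 1.93 in abdomen, 1.75% ± 0.122 in thorax and 2.96% ± 0.406 in head. RpLP0-like overlaps Jra, and RpL24-like overlaps Dtd, in the Release 6 annotation. RpS14a and RpS14b lie next to each other in the genome and encode the same protein of the small-subunit platform. RpS14b held 25.9% to 27.2% of their counts in ovary, 23.9% to 26.0% in abdomen, 32.7% to 33.7% in thorax and 28.3% to 29.7% in head.

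A further 6 pairs had a member at or near 0 counts in all tissues. RpS28a, RpS28-like, RpL37b, RpS19b, RpL22-like, RpL10Aa and RpS10a were the 7 members with too few counts to be tested, the first 5 of them also the lowest of the 89 by TPM. RpS28a had 3 counts in head replicate 1 and 0 in the 11 other libraries, so that in ovary 0 of 87113261 gene counts allows a level of up to 0.0344 CPM (3 counts over the 3 libraries, counting error only). RpL10Aa had 0 counts in all ovary and abdomen libraries, 2, 2 and 0 counts in thorax, and 32, 2 and 3 counts in head. RpL22-like had 0, 1 and 5 counts in ovary, 0, 0 and 1 in abdomen, 0, 0 and 2 in thorax, and 28, 4 and 1 in head. RpS19b had 4, 4 and 9 counts in ovary, 3, 1 and 3 in abdomen, 1, 0 and 1 in thorax, and 11, 0 and 2 in head. RpL37b had 0, 2 and 1 counts in ovary, 0 in every abdomen and thorax library, and 11, 0 and 1 in head. RpS28-like had 4 counts in head replicate 1 and 1 in ovary replicate 3. The highest count of each of these 6 was in head replicate 1, the library with only 27 genes at 0.

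RpS10a had 1, 3 and 3 counts in ovary, 2, 1 and 1 in abdomen, 1, 4 and 4 in thorax, and 26, 10 and 19 in head, and overlaps tau, a microtubule protein gene, in the Release 6 annotation. Its share passed the test for ovary at 0.00604%, against a mean of 0.0949% over the 9 other libraries, on these few counts. By tissue the mean share was 0.0114% in abdomen, 0.0727% in thorax and 0.201% in head. The ovary range (0.00245% to 0.00938%) overlapped the abdomen range (0.00801% to 0.0138%), so ovary was not set apart from abdomen. The members of the 6 pairs with enough counts to be tested were RpS10b, RpS19a, RpS28b, RpL10Ab, RpL22 and RpL37a. RpL10Ab, which forms the mobile stalk beside the ribosome's exit site, had 1005, 1158 and 1113 CPM in ovary, 1164, 817 and 822 CPM in abdomen, 257, 249.9 and 241 CPM in thorax, and 112, 145 and 145 CPM in head. Ovary and abdomen overlapped, thorax was intermediate and head lowest, and ovary exceeded head by 3.03 ± 0.19 (edgeR adjusted p = 4.58e-09). RpL22 had 1026, 1191 and 1192 CPM in ovary against 337, 354 and 334 CPM in abdomen, 763, 387 and 614 CPM in thorax and 339, 347 and 390.4 CPM in head. It was higher in ovary than in abdomen by 1.73 ± 0.21 (1.01e-05) and lower in abdomen than in thorax (-0.78 ± 0.21, 0.00427). RpS28b was among those lower in ovary than in abdomen, at 900, 979 and 1005 CPM in ovary and 3598, 2126 and 2104 CPM in abdomen (-1.44 ± 0.23, 0.000109, and 0.58 on the RPKM scale).

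The table lists a further 4 cytoplasmic ribosomal protein genes under other names, sop (RpS2), oho23B (RpS21), Qm (RpL10) and sta. They were not members by the rule. All 4 were higher in ovary and in abdomen than in head, and 2 were lower in ovary than in abdomen. The 71 mitochondrial ribosomal protein genes, whose products work in a separate ribosome, had 66 higher and 0 lower in ovary than in head (edgeR, adjusted p), 57 higher and 1 lower in abdomen than in head, and 25 higher and 11 lower in ovary than in abdomen, where their median was 0.02. The shares of all genes called higher and lower were 39.3% and 46.4% in ovary against head, and 35.8% and 39.2% in abdomen against head. In ovary against abdomen they were 32.6% and 35.9%. The 35.2% of mitochondrial genes higher there was near the share of all genes, and the 15.5% lower was below it.

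Other genes of the pathway were counted from fixed lists. As a reference, edgeR called 39.3% of all tested genes higher and 46.4% lower in ovary than in head. The shares were 40.3% and 43.7% against thorax, and 32.6% and 35.9% against abdomen. RNA polymerase I genes and their factors were higher in ovary than in all other tissues, with 5 of 5 called in each of the 3 comparisons. RpI1, the largest subunit, averaged 145 CPM in ovary, 57.8 in abdomen, 27.2 in thorax and 18.0 in head. Of 27 nucleolar assembly factors, 27 were higher in ovary than in head and 26 than in thorax, and 18 were higher and 2 lower in ovary than in abdomen. Nop60B, the pseudouridine synthase of ribosomal RNA, averaged 645 CPM in ovary, 391 in abdomen, 35.2 in thorax and 32.9 in head. Their median log2 difference between ovary and abdomen was 0.81, and it was -0.43 for the ribosomal protein genes. The list of 12 elongation and ribosome-bound factors also holds sta, counted above as a ribosomal protein gene. Of the 12 factors, 9 were higher and 1 lower in ovary than in head, and 4 were higher and 6 lower than in abdomen. Among these, eEF2 (listed as Ef2b), which moves the ribosome along the message, averaged 3417 CPM in ovary, 1671 in abdomen, 2910 in thorax and 1935 in head, while Ef1alpha48D, which brings in aminoacyl-tRNA, averaged 10885 CPM in ovary, 22967 in abdomen, 11396 in thorax and 9281 in head. Of 15 regulators, 6 were higher and 4 lower in ovary than in head, and 5 were higher and 4 lower than in abdomen. For the regulators, and for the elongation and ribosome-bound factors against abdomen, the higher calls were near the share over all genes. Xrp1, a transcription factor of the cell response to ribosomal protein loss, was lower in ovary, at 46.4 CPM, than in abdomen (702 CPM), thorax (1095 CPM) and head (782 CPM), and Thor, the fly 4E-BP, had 27.4 CPM in ovary, 255 in abdomen, 442 in thorax and 195 in head. These 2 genes do not stand for the 15 regulators. The abdomen level of the regulators was at a median of 83.8% of the ovary level, and Xrp1 was the highest at 1513%.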

How the data were processed

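Per the labels and the methods, the authors aligned the 12 total RNA libraries to dm3 using TopHat2, and easyRNASeq summed reads over gene models. The deposited raw counts and the deposited RPKM of the same genes were used. TPM was made by rescaling RPKM to a fixed sum per library. The raw counts were tested with edgeR 4.0.16 (filterByExpr, TMM factors, quasi-likelihood test, tissue as the only term, all 12 libraries in one fit), 2-sided, with Benjamini-Hochberg adjustment over 11188 genes and a threshold of 0.05. The study fitted a batch term, but its batches are not named in the sources used here. CPM are scaled by the TMM factors. Errors of log2 differences are approximate standard errors, the absolute log2 difference divided by the square root of its quasi-likelihood F. Shares were tested by exact permutation over libraries (scipy 1.17.1). DESeq2 1.42.0, limma 3.58.1 (pseudocounts 1 and 0.1), other scalings and filters, a replicate block and each library left out in turn were alternatives. The study calls its libraries biologically independent.

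Members, paralogue pairs and lists were chosen with earlier results of these data known. Named, beside those not reported here, are members of the 13 pairs, the stalk proteins, the -like genes, outside the pairs the 2 highest and 2 lowest called members of each comparison whose libraries do not overlap, and the 5 highest and 5 lowest by TPM. Other genes came from the lists, and RpL12 and members listed to complete a count were named after their values were seen. All 89 symbols matched the Release 6 annotation, which was used for names and neighbours only, and 2 have other current names (RpL37a is RpL37-1 and RpL37b is RpL37-2). Germline and follicle cell markers are those of the ovary, and 2 of the 10 germline markers, grk and bgcn, were lower in ovary than in head. Results of some members are not reported here. The fat body and small RNA data of the series were not used here.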

Additional observations from a re-analysis of the deposited data

How the results depend on the processing

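The median log2 difference over all genes, -0.25 for ovary against head, was -0.53 with DESeq2, 0.26 with library size alone and 1.59 on log2(RPKM + 1). Counts given here are of 82 or 83 tested members, or of all 89 with no filter. Lower calls in ovary against head became 5 with DESeq2, 3 with no filter, 3 on log2(TPM + 1), 2 on log2(TPM + 0.1) and 1 with only the 2 tissues compared. In ovary against thorax they became 3 with DESeq2 and 2 with no filter. In ovary against abdomen, higher calls became 29 with library size alone, 34 on either TPM scale and 79 on RPKM, and lower calls 26 on log2(TPM + 0.1) and 0 on RPKM. In abdomen against head, lower calls became 1 with DESeq2, 2 with no filter and 11 on either TPM scale. In abdomen against thorax, higher calls became 38 on RPKM, and lower calls 8 with DESeq2, 0 with library size alone, 2 with no filter, 11 on RPKM and 1 with only the 2 tissues. In thorax against head, higher calls became 15 with DESeq2, 5 with library size alone, 20 with upper quartile factors, 4 and 3 on the TPM scales with pseudocounts 1 and 0.1, 63 on RPKM and 26 with only the 2 tissues, and lower calls 18 with library size alone, 0 with upper quartile factors, 3 with no filter, 43 on either TPM scale and 0 on RPKM. Calls over all 11188 genes moved as well. In thorax against head, 5968 genes were higher and 1219 lower on RPKM and 1087 and 4853 on log2(TPM + 1), against 1843 and 2847 in the main fit. In ovary against abdomen, 7227 were higher and 1464 lower on RPKM and 5044 and 2696 on log2(TPM + 1), against 3646 and 4017. The cause was not tested.

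Leaving out each library in turn gave 58 to 73 higher and 0 to 1 lower calls in ovary against head, 61 to 73 and 0 to 1 in ovary against thorax, 12 to 27 and 24 to 42 in ovary against abdomen, 64 to 71 and 0 to 1 in abdomen against head, 62 to 67 and 1 to 4 in abdomen against thorax, and 4 to 23 and 0 to 14 in thorax against head. The difference in share of counts ranged from 3.61 to 5.08 percentage points, was 7.57 as a share of TPM (p = 0.118, exact permutation test), and did not pass the test under any alternative, including 1 chosen after seeing the data that added the 4 genes listed under other names (4.31). Of the 13 pairs, 8 passed as log2 ratios of counts, the added ones being RpL10A, RpL22 and RpS28, whose minor members are near 0. The ratios used raw counts with 0.5 added. Where the minor member has 0 counts, they follow the raw count of the major member, which grows with library depth. On leaving out a head, thorax or abdomen library 4 or 5 pairs passed. On leaving out an ovary library 0 passed, a number all but fixed by the larger smallest p of that test. Of 50 fold changes printed or checked, each under 18 settings, 850 of the 900 values kept their direction and side of the threshold, 41 kept the direction but lost the call, 1 gained it (RpL22 in abdomen against head on log2(TPM + 1)) and 8 turned sign. The call was lost in 10 settings for RpL34b and 6 for RpL24 in ovary against abdomen, 7 each for RpL29 and RpS9 and 3 for RpLP0 in thorax against head, and 3 for RpL4 in abdomen against thorax. The 8 that turned sign did so on log2(RPKM + 1) and lay below the median of all genes on that scale. They were in ovary against abdomen RpL7 (1.26), RpL24 (1.36), RpL38 (0.89), RpL5 (0.60), RpS25 (0.71) and RpS28b (0.58), where that median was 1.43, and in thorax against head RpL29 (0.18) and RpS9 (0.24), where it was 0.51.

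Replicate numbers are shared between tissues in the labels. Of 18 pairs of libraries with the same number, 3 had deviations from the tissue means correlated above 0.1 (range -0.181 to 0.131). A pair with different numbers, head 1 and thorax 3, reached 0.229. Deviations of the 3 libraries of a tissue sum to 0, so these correlations cannot settle whether the numbers pair the libraries. With the number as a replicate block, 67 members were higher and 0 lower in ovary against head, 63 and 0 in ovary against thorax, 14 and 38 in ovary against abdomen, 68 and 0 in abdomen against head, 63 and 3 in abdomen against thorax, and 7 and 4 in thorax against head. The blocked value planned for the paralogue pairs gives no count and was not run. Depth limits the 7 untested members, whose counts are too few for any comparison of levels.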
